A study of Rattus norvegicus with 10 samples.

Results

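Microglia, the resident macrophages of the brain, were followed through 35 genes chosen by name for their identity and activation, of which 34 are among the 17168 rows of the count table and 31 held enough reads to be tested. By role, 13 are homeostatic genes of resting microglia, 13 are shared by myeloid cells in general and 9 are associated with disease-activated microglia. Itgax, an integrin of the disease-associated set, was not analysed here, and Cst7, Ccl3 and Ccl4 had too few reads for the test. Left hippocampi were taken at 11 months of age from 10 male rats of the TgF344-AD line, and each rat gave 1 library. Every rat, in both groups, was a Fischer 344 animal with human transgenes for a mutant amyloid precursor protein and a presenilin 1 lacking an exon, which the mouse prion promoter drives in this line, and no rat without transgenes was analysed here. Of the 10 rats, 5 had been given ibudilast, an inhibitor of cyclic nucleotide phosphodiesterases, in chow from 5 months of age for 6 months, and 5 untreated rats had eaten plain chow. Per the labels, the ibudilast samples alone were kept in RNAlater-ICE, a storage solution for frozen tissue, so that treatment and storage cannot be told apart in any value below.

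As background, resting microglia survey the tissue with fine processes and sense nucleotides, chemokines and growth factors through receptors such as P2Y12, CX3CR1 and CSF1R. Around amyloid plaques in mouse models they lower many of these homeostatic genes and raise genes of lipid handling, phagocytosis and lysosomes, among them Lpl, Gpnmb, Spp1, Cst7 and Itgax. The transcription factors PU.1 (Spi1) and IRF8 set the myeloid programme that both states share.

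The promoters of 3 members are shown because they carry letters read by those factors and belong to genes with different outcomes. Cd53 and Inpp5d hold GAGGAAGT, a PU.1 motif, and Gpnmb holds the composite motif of PU.1 and an IRF. The capitals mark the match, both strands were searched, and the motifs overlap in their GGAA letters. Each sequence runs 5′ to 3′ in the direction of the gene, from 250 bases before to 50 bases after its start, from RefSeq on GRCr8, a later build than the rn6 of the deposited tables. Cd53 lies at chr2:197087847-197088146 on the minus strand, Inpp5d at chr9:95735283-95735582 on the plus strand and Gpnmb at chr4:79340878-79341177 on the plus strand.
Cd53: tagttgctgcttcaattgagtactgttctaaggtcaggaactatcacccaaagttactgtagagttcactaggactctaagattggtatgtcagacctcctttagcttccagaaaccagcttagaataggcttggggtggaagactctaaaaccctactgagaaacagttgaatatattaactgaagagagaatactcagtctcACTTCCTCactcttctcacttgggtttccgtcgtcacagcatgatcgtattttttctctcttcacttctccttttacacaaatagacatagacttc
Inpp5d: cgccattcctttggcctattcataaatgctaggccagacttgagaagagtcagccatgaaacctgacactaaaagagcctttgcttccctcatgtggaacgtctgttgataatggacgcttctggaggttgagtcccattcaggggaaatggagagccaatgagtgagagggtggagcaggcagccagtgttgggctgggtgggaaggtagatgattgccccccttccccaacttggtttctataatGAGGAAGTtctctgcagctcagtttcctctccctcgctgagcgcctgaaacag
Gpnmb: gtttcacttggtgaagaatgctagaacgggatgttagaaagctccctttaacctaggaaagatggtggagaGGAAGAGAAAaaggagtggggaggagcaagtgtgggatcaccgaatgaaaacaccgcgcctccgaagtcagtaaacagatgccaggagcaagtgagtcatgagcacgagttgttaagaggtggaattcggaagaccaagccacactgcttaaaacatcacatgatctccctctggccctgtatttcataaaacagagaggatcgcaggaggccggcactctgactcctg
Of the 35 members, 22 had a promoter in that table. GAGGAAGT was in 2 of the 22 (9.09%) and in 670 of all 27457 promoters (2.44%), and the composite in 3 of the 22 (13.6%; Cd68, Clec7a and Gpnmb) and in 789 of all (2.87%). The E-box CACGTG, a form of the letters bound by MITF and TFE3, was in 0 of the 22 and in 1826 of all promoters (6.65%). Other forms of their site were not searched, so the 0 does not mean that Gpnmb or another member lacks one. Of the promoters shown, those of Cd53 and Gpnmb belong to genes that fell with ibudilast and that of Inpp5d to a gene that did not pass the test. Cd68 and Clec7a, which also hold the composite, did not pass either.

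Libraries held 14806800 to 17114200 counts in ibudilast rats and 15984400 to 18533500 counts in untreated rats. The microglial markers P2ry12, Tmem119, Cx3cr1, Csf1r and Aif1 each had at least 128 counts in every library. Untreated replicate 3 stood apart, as the highest of the 10 libraries for 26 of the 31 tested members. Its level divided by the mean of the other untreated rats had a median of 1.76 over the members, and ranged from 0.281 for Lpl to 1.98 for Inpp5d. Ibudilast replicate 4 had the lowest summed neuron markers and the highest summed markers of border macrophages, the macrophages of vessels and meninges. Values with and without such libraries are given where a result rests on them. Levels below are in CPM, counts relative to library sizes scaled by TMM factors, and are compared across rats and not between genes. In bulk tissue, fewer microglia and less RNA of a gene per microglial cell cannot be told apart.

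Of the 31 tested members, 12 fell with ibudilast (38.7%), while 22.8% of all 12355 genes tested fell, and 1 rose (3.23%), while 24.3% of all genes rose. A call is an adjusted p under 0.05 in edgeR's quasi-likelihood test with Benjamini-Hochberg adjustment over all genes tested, and 18 members did not pass; 13 of 31 passed in either direction, and 47.1% of all genes did. All 5 ibudilast rats lay below all 5 untreated rats for 10 members, against 15.4% of all genes, and above them for 0 members, against 18% of all genes. The median log2 fold change, ibudilast over untreated, was -0.22 over the members and 0.02 over all genes, and 28 of 31 members had a negative one. Without untreated replicate 3 the members' median was -0.07, with 18 of 31 negative, without ibudilast replicate 4 it was -0.47, and with library size alone as the scaling -0.12. The 12 members that fell were the purinergic receptors P2ry12 and P2ry13, Gpr34, Cx3cr1, Csf1r, Mertk, the complement receptor chains Itgam and Itgb2, Cd53, Fcgr2b, Lpl and Gpnmb. All 12 also passed without untreated replicate 3. Without ibudilast replicate 2, 9 members fell, and without any other single rat 11 or 12 fell. Itgb5 alone rose. Each of the 3 sets held members that fell and members that did not pass.

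**Figure D1:**
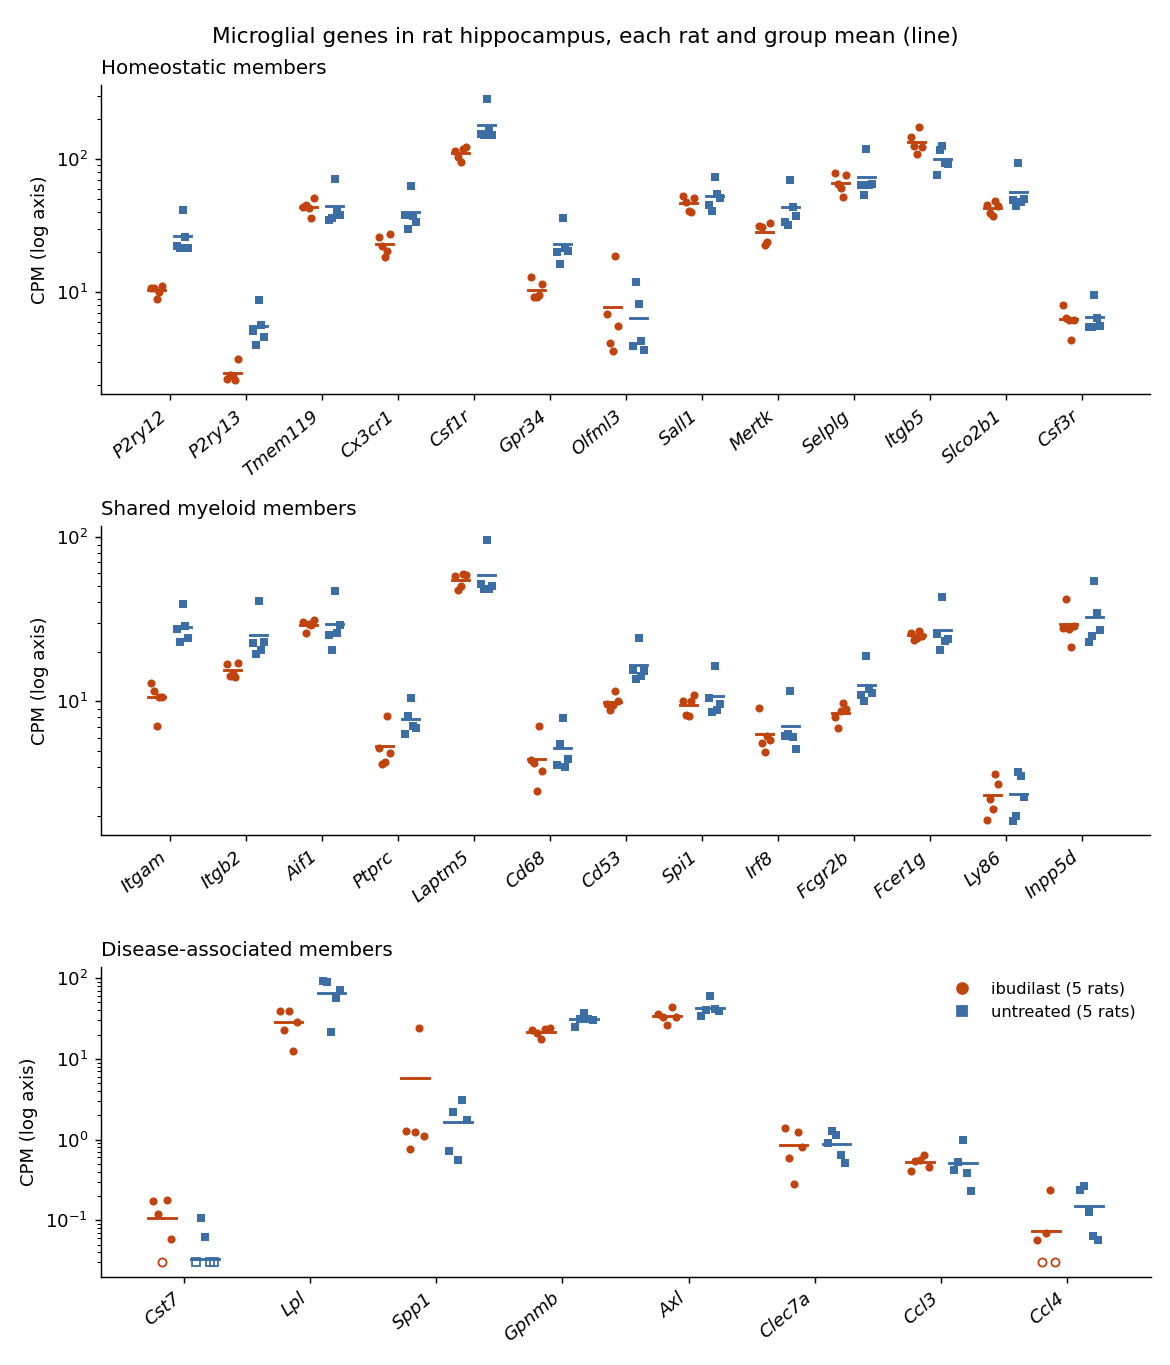
Level of each measured member in every rat, in CPM on a log axis, in 3 panels for the homeostatic, shared myeloid and disease-associated sets. Circles are the 5 ibudilast rats, squares the 5 untreated rats and lines the group means; open symbols at the foot mark libraries with 0 counts. P2ry12 and Itgam show ibudilast rats wholly below untreated rats, Tmem119 and Aif1 overlap, and untreated replicate 3 is the single high square for most genes.

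Among the 13 homeostatic genes there were 6 falls (46.2%, against 22.8% of all genes). There was 1 rise (7.69%, against 24.3% of all genes), and the other 6 had no call. The median log2 fold change was -0.41, or -0.18 without untreated replicate 3. The receptors for extracellular nucleotides led. P2ry12, the ADP receptor through which microglia extend processes toward injury, had 10.8, 10.8, 8.93, 10.2 and 11.2 CPM in the ibudilast rats, against 22.5, 21.7, 41.7, 25.9 and 21.5 CPM in the untreated rats. The ibudilast rats lay close together, and the highest of them was well below the lowest untreated rat. Its log2 fold change was -1.36 ± 0.18 (SE, adjusted p = 0.000236 by edgeR), and in 21 other settings it ranged from -1.45 to -1.17 and passed in all. P2ry13, a related ADP receptor, had 2.25, 2.38, 2.37, 2.19 and 3.18 CPM with ibudilast, against 5.11, 4.0, 8.74, 5.70 and 4.60 CPM without, a log2 fold change of -1.18 ± 0.23 (adjusted p = 0.00169 by edgeR). Again no ibudilast rat reached the untreated range. Gpr34, a receptor for lysophosphatidylserine, had 12.96, 9.17, 9.28, 9.51 and 11.5 CPM in ibudilast rats, against 20.3, 16.4, 36.2, 21.7 and 20.4 CPM in untreated rats. The groups did not overlap, and the log2 fold change was -1.13 ± 0.20 (adjusted p = 0.00125 by edgeR).

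These 3 receptor genes lie inside larger genes in the GRCr8 annotation, P2ry12 and P2ry13 within Med12l and Gpr34 within Cask. Libraries were made with a stranded kit, and whether counting used the strand is not given in the sources used here. Med12l rose, with 21.4 ± 1.18 CPM in ibudilast rats and 12.6 ± 1.06 CPM in untreated rats (SD, n = 5 each), opposite in direction to the receptor genes inside it, at a log2 fold change of 0.77 ± 0.08 (adjusted p = 5.24e-05 by edgeR). Cask fell with Gpr34, with 25.6 ± 2.72 CPM in ibudilast rats and 48.9 ± 7.83 CPM in untreated rats (SD, n = 5 each). The log2 fold change of Cask was -0.93 ± 0.12 (adjusted p = 0.000161 by edgeR), and its part in the Gpr34 count was not tested.

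The receptors Cx3cr1 and Csf1r fell as well. Cx3cr1, the receptor for neuronal fractalkine, had 26.3, 22.5, 18.5, 20.3 and 27.4 CPM in ibudilast rats, against 38.1, 30.2, 63.1, 37.3 and 33.9 CPM in untreated rats. Csf1r, on whose signal microglia depend for survival, had 115, 104, 96.2, 119.6 and 124 CPM with ibudilast, against 156, 151, 284, 162 and 154 CPM without. Neither gene had an ibudilast rat inside the untreated range, although the ibudilast maximum of Cx3cr1 came near the untreated minimum. The log2 fold change was -0.82 ± 0.20 for Cx3cr1 (adjusted p = 0.00641) and -0.70 ± 0.18 for Csf1r (adjusted p = 0.00816), both by edgeR. Each passed in all 21 other settings. The ligands of these receptors did not pass: the log2 fold change was 0.07 for Il34, 0.01 for Csf1 and -0.25 for Cx3cl1.

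Mertk, a receptor kinase for phagocytosis of dying cells that astrocytes also express, had 31.4, 30.8, 22.7, 23.8 and 33.0 CPM in ibudilast rats, against 34.0, 32.2, 70.2, 44.0 and 37.7 CPM in untreated rats. The groups overlapped narrowly, and the log2 fold change was -0.62 ± 0.21 (adjusted p = 0.0341 by edgeR). The call was lost in 6 of 21 other settings. They were upper-quartile scaling, a replicate block, and the omission of ibudilast replicate 2, 3 or 4 or untreated replicate 4. Adjusted p by edgeR was up to 0.0765 in those omissions and up to 0.112 over the 6 settings. Itgb5, an integrin chain that many brain cells express, ran the other way, with 146, 126, 109.7, 174 and 124 CPM in ibudilast rats, against 76.9, 117, 126, 94.6 and 91.7 CPM in untreated rats. The ranges overlapped, the log2 fold change was 0.42 ± 0.16 (adjusted p = 0.0452 by edgeR), and the call held in 9 of 21 other settings. It was lost when any rat but ibudilast replicate 3 or untreated replicate 3 was left out singly, with adjusted p from 0.0543 to 0.114.

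The homeostatic set also held genes with no call. Tmem119, a membrane protein used to tell microglia from other macrophages, had 43.5, 45.2, 43.2, 36.1 and 50.8 CPM in ibudilast rats, against 35.2, 36.3, 70.7, 41.3 and 38.0 CPM in untreated rats. Apart from untreated replicate 3, the untreated rats were below all ibudilast rats but replicate 4. Its log2 fold change was -0.02 ± 0.19 (adjusted p = 0.954 by edgeR), with a sign that depended on the scaling, and 0.19 without untreated replicate 3. When the 4 libraries that stood apart by marker genes in earlier results of these data (ibudilast replicates 1 and 4, untreated replicates 2 and 3) were left out, it passed as higher, at 0.28 (adjusted p = 0.0220 by edgeR). The same omission made a fall of Slco2b1, an organic anion transporter, pass (adjusted p = 0.0146), which over all rats had a log2 fold change of -0.41 ± 0.20 (adjusted p = 0.111). Sall1, a transcription factor that keeps microglial identity, had 46.6 ± 5.60 CPM with ibudilast and 53.3 ± 12.6 CPM without. Selplg, the ligand of P-selectin, had 66.5 ± 11.4 CPM in ibudilast rats and 73.2 ± 26.0 CPM in untreated rats, and Csf3r, the receptor for granulocyte colony-stimulating factor, 6.26 ± 1.27 CPM in ibudilast rats and 6.49 ± 1.75 CPM in untreated rats (SD, n = 5 each), with no call for any of the 3.

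Olfml3, a secreted matrix protein, had 6.91, 4.17, 3.63, 18.9 and 5.56 CPM in ibudilast rats, against 3.97, 11.9, 8.18, 4.29 and 3.69 CPM in untreated rats. It was highest in ibudilast replicate 4 and next in untreated replicate 2, the libraries with the highest summed border macrophage markers, whose part in its value was not tested. Olfml3 had a log2 fold change of 0.29 ± 0.50 (adjusted p = 0.669 by edgeR), and -0.35 without ibudilast replicate 4.

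Of the genes shared by myeloid cells, 4 of 13 fell (30.8%, against 22.8% of all genes) and 9 did not pass. The median log2 fold change was -0.18, or -0.01 without untreated replicate 3. Itgam encodes CD11b, the alpha chain of complement receptor 3, and had the most negative log2 fold change of the tested members. It had 12.9, 11.6, 7.11, 10.6 and 10.7 CPM in ibudilast rats, against 27.7, 23.0, 39.1, 28.6 and 24.2 CPM in untreated rats. Its log2 fold change of -1.43 ± 0.18 (adjusted p = 0.000161 by edgeR) stayed between -1.52 and -1.31 in 21 other settings. Itgb2, CD18, is the beta chain that pairs with it, and had 16.9, 14.3, 14.99, 14.1 and 17.1 CPM with ibudilast, against 22.8, 19.4, 41.1, 20.6 and 22.9 CPM without. Neither chain overlapped between the groups. The log2 fold change of Itgb2 was -0.71 ± 0.19 (adjusted p = 0.0118 by edgeR).

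Cd53, a tetraspanin of leukocytes whose promoter is shown above, had 9.62, 8.93, 9.55, 11.6 and 10.1 CPM in ibudilast rats, against 15.6, 13.6, 24.3, 14.3 and 15.4 CPM in untreated rats. The groups did not overlap, at a log2 fold change of -0.74 ± 0.16 (adjusted p = 0.00347 by edgeR). Fcgr2b, the inhibitory receptor for immunoglobulin G, had 8.0, 6.85, 8.72, 9.80 and 8.97 CPM with ibudilast, against 10.9, 10.0, 18.9, 11.9 and 11.3 CPM without. The groups were separate by a narrow margin. Fcgr2b had a log2 fold change of -0.57 ± 0.18 (adjusted p = 0.0228 by edgeR), lost without ibudilast replicate 2 (adjusted p = 0.0553). Fcgr2b belongs to a family of similar Fc receptor genes, and how the counting divided any shared reads was not tested.

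Aif1, which encodes the microglial protein IBA1, had 30.4, 26.2, 29.8, 29.2 and 31.1 CPM in ibudilast rats, against 25.2, 20.6, 47.0, 26.1 and 29.0 CPM in untreated rats. Untreated replicate 3 was the highest and the other untreated rats lay in or below the ibudilast range, while the group means were 29.3 ± 1.90 CPM with ibudilast and 29.6 ± 10.2 CPM without (SD, n = 5 each). Its log2 fold change was -0.01 ± 0.19 (adjusted p = 0.971 by edgeR), with a sign that depended on the scaling. Ptprc, the leukocyte phosphatase CD45, had 5.24, 4.17, 4.25, 8.15 and 4.86 CPM in ibudilast rats, against 6.37, 8.16, 10.4, 7.05 and 6.88 CPM in untreated rats. Only ibudilast replicate 4 reached into the untreated range. The log2 fold change was -0.54 ± 0.21 (adjusted p = 0.0573 by edgeR), and without that rat it was -0.77 and passed (adjusted p = 0.00468). Over all rats it also passed with DESeq2 (adjusted p = 0.0351), limma-voom (adjusted p = 0.0417) and limma-trend (adjusted p = 0.0449), and in 5 of 21 other settings in all.

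The remaining shared genes had no call, and their log2 fold changes lay between -0.22 and -0.03, that of Ly86 with a sign that depended on the scaling. They are the lysosomal proteins Laptm5 and Cd68, the transcription factors Spi1 and Irf8, the Fc receptor gamma chain Fcer1g, the Toll-like receptor partner Ly86 and the lipid phosphatase Inpp5d. Spi1 had 9.50 ± 1.25 CPM in ibudilast rats and 10.8 ± 3.23 CPM in untreated rats, and Irf8 6.34 ± 1.61 CPM in ibudilast rats and 7.05 ± 2.56 CPM in untreated rats (SD, n = 5 each). Inpp5d had 27.9, 42.1, 27.4, 21.6 and 28.9 CPM with ibudilast, against 22.9, 25.0, 54.2, 34.5 and 27.1 CPM without. It shares the PU.1 letters with Cd53, but its groups overlapped, at a log2 fold change of -0.15 ± 0.25 (adjusted p = 0.663 by edgeR).

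**Figure D2:**
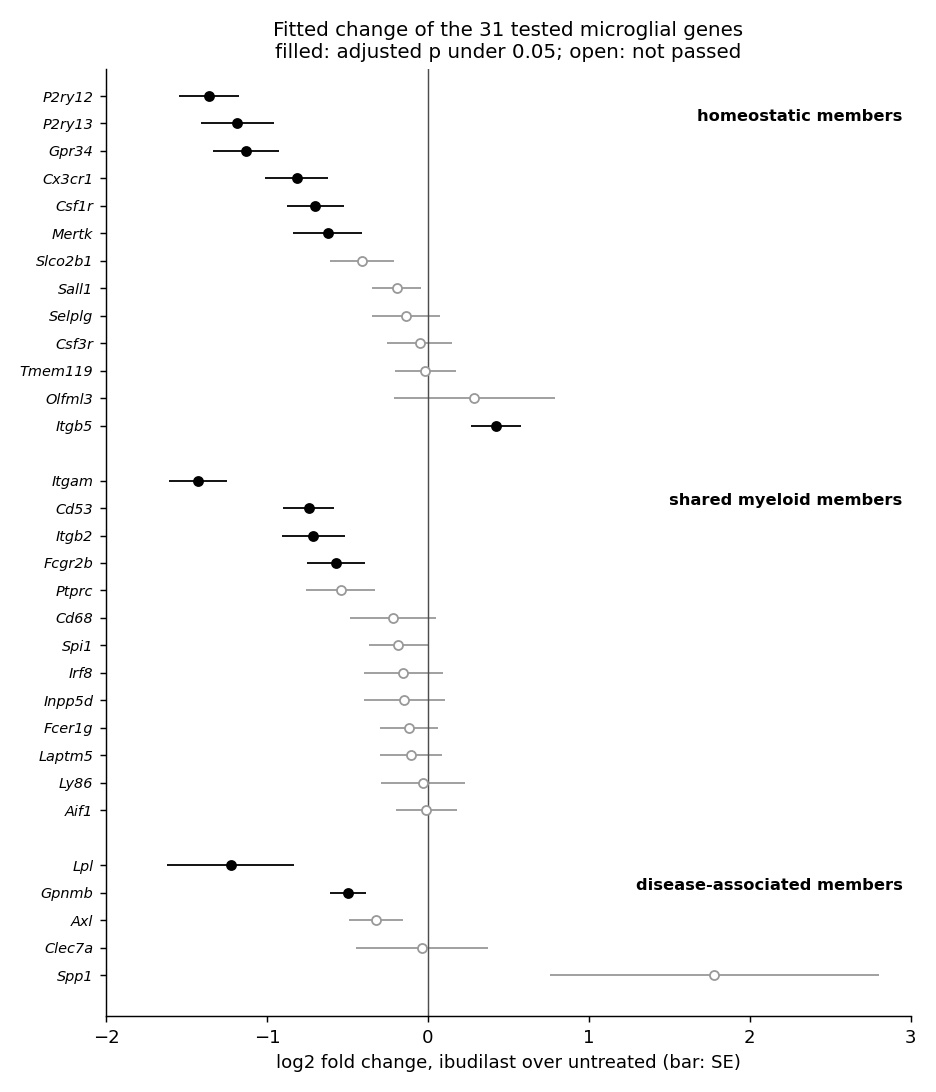
Log2 fold change of ibudilast over untreated for the 31 tested members, by set, with the SE as a bar; filled points passed an adjusted p of 0.05 in edgeR's test and open points did not. Itgam and P2ry12 have the most negative values at -1.43 and -1.36, Itgb5 is the only filled point above 0, and Spp1 has the widest bar, at 1.78 ± 1.02.

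Among the disease-associated genes, 5 of 9 could be tested, of which 2 fell (40%, against 22.8% of all genes) and 3 did not pass. That share rests on only 5 genes. Their median log2 fold change was -0.32, or -0.55 without ibudilast replicate 4 and -0.19 without untreated replicate 3. Gpnmb, a transmembrane glycoprotein of phagocytes with loaded lysosomes, had 22.9, 21.0, 17.7, 23.6 and 24.0 CPM in ibudilast rats, against 25.1, 31.1, 36.5, 30.9 and 30.3 CPM in untreated rats. The groups did not overlap, and untreated replicate 3 was again the highest. The log2 fold change was -0.50 ± 0.11 (adjusted p = 0.00458 by edgeR), and it passed in all 21 other settings.

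Lpl, lipoprotein lipase, had 39.0, 22.8, 38.7, 12.7 and 28.4 CPM with ibudilast, against 92.1, 89.5, 21.7, 56.4 and 70.8 CPM without. Unlike the other members that fell, it was lowest, not highest, among untreated rats in replicate 3, and the groups overlapped through that rat. Its log2 fold change was -1.22 ± 0.39 (adjusted p = 0.0256 by edgeR). The call was lost without ibudilast replicate 2 or 5 or untreated replicate 1 or 2 (adjusted p from 0.0510 to 0.0632). It was also lost with a replicate block (adjusted p = 0.0647 by edgeR). As background, pyramidal neurons of the hippocampus express Lpl too. Slc17a7, the vesicular glutamate transporter of excitatory neurons, had 1099, 1326, 1671, 236 and 1476 CPM in ibudilast rats, against 1997, 1695, 1076, 1509 and 1790.04 CPM in untreated rats. It was lowest within each group in the same rats as Lpl, and its part in the Lpl value was not tested.

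Spp1, osteopontin, had 1.27, 0.774, 1.26, 24.3 and 1.10 CPM in ibudilast rats, against 0.721, 2.21, 0.562, 3.08 and 1.76 CPM in untreated rats. Ibudilast replicate 4 alone carried the high mean, and the log2 fold change of 1.78 ± 1.02 (adjusted p = 0.177 by edgeR) became -0.62 without it (adjusted p = 0.304). In the same rat the summed markers of border macrophages were 78.9 CPM, against 18.8 to 24.2 CPM in the other ibudilast rats and 17.3 to 39.96 CPM in untreated rats. The part of those cells in the Spp1 value was not tested.

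**Figure D3:**
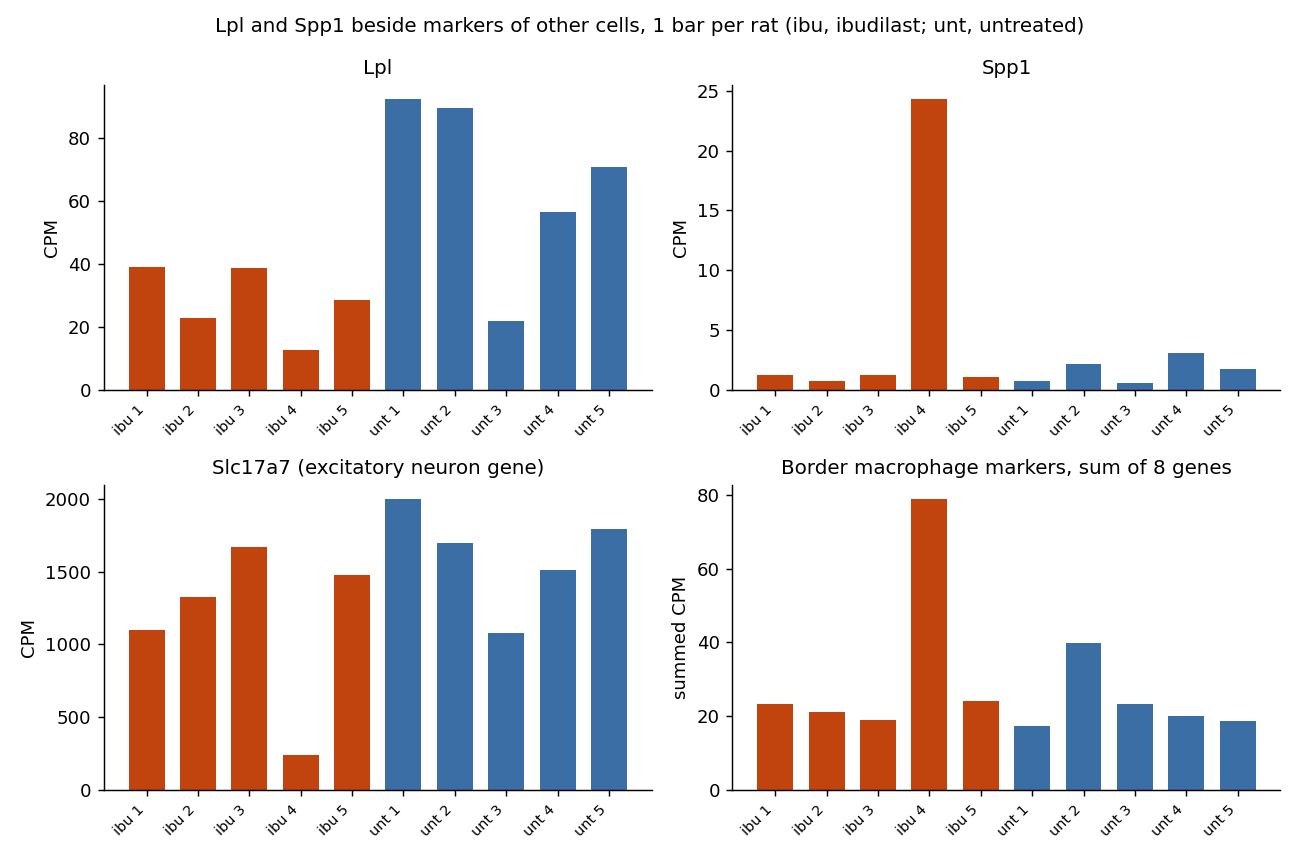
Lpl, Spp1 and the neuronal gene Slc17a7 in CPM, and the summed CPM of 8 border macrophage markers, with 1 bar per rat, ibudilast rats at left and untreated rats at right. Ibudilast replicate 4 has the tallest Spp1 and border macrophage bars, at 24.3 and 78.9 CPM, and the shortest Lpl and Slc17a7 bars; untreated replicate 3 has the shortest Lpl and Slc17a7 bars of its group.

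Axl, a receptor kinase of the same family as Mertk, had 34.4 ± 6.30 CPM in ibudilast rats and 43.0 ± 10.3 CPM in untreated rats (SD, n = 5 each), a log2 fold change of -0.32 ± 0.17 (adjusted p = 0.142 by edgeR). Its fall passed in 1 of 21 other settings, the omission of the 4 libraries that stood apart (adjusted p = 0.0391 by edgeR). Clec7a, the receptor Dectin-1, was near the limit of counting, with 24, 10, 4, 21 and 14 counts in ibudilast rats, against 15, 24, 18, 10 and 9 counts in untreated rats. The cysteine protease inhibitor Cst7 had 3, 2, 0, 3 and 1 counts with ibudilast, against 0, 2, 1, 0 and 0 counts without. The chemokine Ccl3 had 7, 9, 8, 11 and 8 counts in ibudilast rats and 7, 10, 16, 6 and 4 counts in untreated rats. Ccl4, a chemokine of the same kind, had 1, 0, 1, 4 and 0 counts in ibudilast rats and 4, 5, 2, 1 and 1 counts in untreated rats. A difference in Cst7 or Ccl4 of the size seen in the receptors was not detectable at this depth, since a count of 0 allows up to 3.

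The mean log2 CPM of the tested homeostatic genes lay between 4.33 and 4.69 in ibudilast rats and between 4.76 and 5.62 in untreated rats, without overlap. That of the tested disease-associated genes lay between 2.66 and 3.75 in ibudilast rats and between 3.07 and 3.69 in untreated rats, and overlapped. The difference between the sets did not separate the groups. Per rat, the homeostatic mean minus the disease-associated mean was 1.48, 1.82, 1.68, 0.816 and 1.74 with ibudilast, against 1.55, 1.11, 2.56, 1.43 and 1.46 without. The rats overlapped, the lowest being ibudilast replicate 4, where Spp1 was high, and the highest untreated replicate 3, where Lpl was low. The means were 1.51 ± 0.407 in ibudilast rats and 1.62 ± 0.548 in untreated rats (SD, n = 5 each), a difference of -0.11. With only the 13 homeostatic and 3 disease-associated genes that had 10 counts in every library, the difference was 0.23, of the other sign.

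Within single rats, several members that fell did not keep their proportion to members that did not. P2ry12 divided by Tmem119 in the same library gave 0.247, 0.240, 0.207, 0.282 and 0.220 in ibudilast rats, against 0.638, 0.599, 0.590, 0.627 and 0.567 in untreated rats. Untreated replicate 3, far above the others for each gene alone, lay among them in this ratio, and the groups were wide apart. Itgam divided by Aif1 averaged 0.362 ± 0.0805 with ibudilast and 0.995 ± 0.148 without, and Gpr34 divided by Aif1 0.357 ± 0.0449 with ibudilast and 0.780 ± 0.0479 without (SD, n = 5 each). Csf1r divided by Aif1 averaged 3.81 ± 0.340 in ibudilast rats and 6.22 ± 0.731 in untreated rats, and Itgam divided by Itgb2, the 2 chains of 1 receptor, 0.685 ± 0.136 in ibudilast rats and 1.16 ± 0.165 in untreated rats (SD, n = 5 each). None of these ratios overlapped between the groups. Tmem119 divided by Aif1 did overlap, at 1.49 ± 0.191 in ibudilast rats and 1.51 ± 0.176 in untreated rats, as did Laptm5 divided by Aif1, at 1.87 ± 0.127 in ibudilast rats and 2.0 ± 0.236 in untreated rats (SD, n = 5 each).

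Relative to Aif1, 11 of the other 30 tested members were lower in every ibudilast rat than in any untreated rat, and 0 were higher. The 11 were P2ry12, P2ry13, Gpr34, Cx3cr1, Csf1r, Mertk, Slco2b1, Itgam, Itgb2, Cd53 and Fcgr2b. Slco2b1 had not passed edgeR's test, while Lpl and Gpnmb, which had fallen, overlapped between the groups relative to Aif1. Of all other genes, 2.58% were lower and 8.19% higher on that scale. Aif1 was highest in untreated replicate 3, as were most members, so the ratio lowers that rat for genes without its rise. The 2.58% is therefore not a like background for the members. Without the ratio, 10 members and 15.4% of all genes lay wholly lower. In the untreated rats, 23 of the 30 varied less relative to Aif1 than alone. Their median SD was 0.181 in the log2 ratio and 0.414 in log2 CPM. Among the ibudilast rats the medians were 0.231 in the log2 ratio and 0.244 in log2 CPM. The untreated SDs include replicate 3, high for Aif1 and most members, and were not computed without it. In the other untreated rats, Csf1r ran from 151 to 162 CPM, but Csf1r divided by Aif1 from 5.30 to 7.34. Gpr34 went the other way, from 16.4 to 21.7 CPM and, divided by Aif1, from 0.704 to 0.830. These ratios were chosen after the values were seen, describe unequal differences and carry no test.

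**Figure D4:**
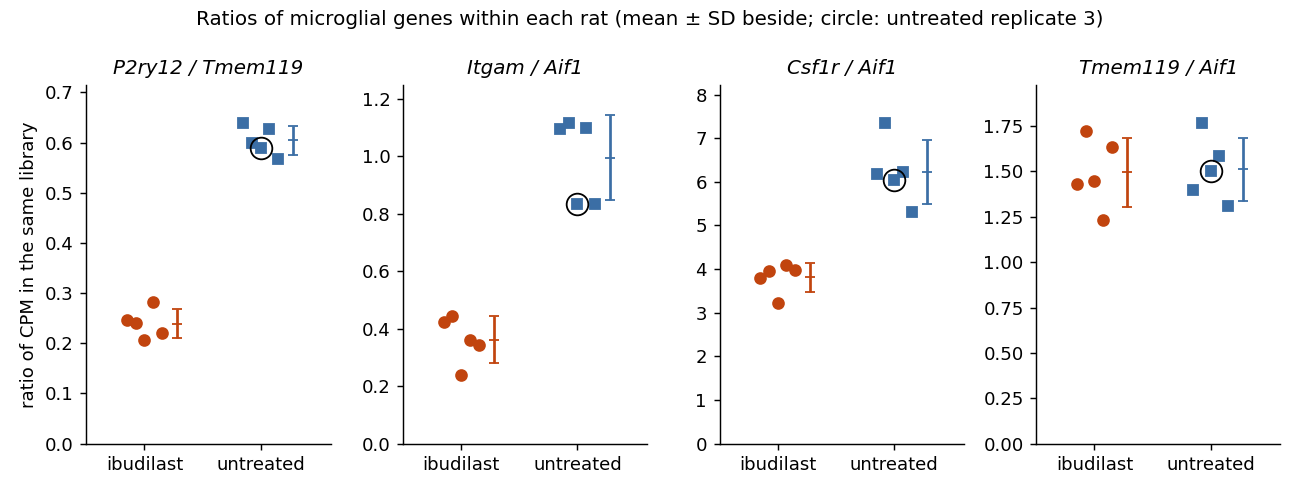
Ratio of the CPM of 2 genes within each rat's library, for P2ry12 over Tmem119, Itgam over Aif1, Csf1r over Aif1 and Tmem119 over Aif1, with the mean ± SD of each group beside its 5 points. The first 3 ratios separate ibudilast from untreated rats and the last overlaps, and untreated replicate 3, circled, lies with its group in all 4.

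Further genes of the same programmes were counted in lists beside the members. A list of 25 other homeostatic genes held 10 falls (40%, against 22.8% of all genes) and 1 rise (4%, against 24.3% of all genes). The other 14 genes had no call. Mef2a, a transcription factor, had 36.4 ± 3.73 CPM in ibudilast rats and 84.9 ± 14.7 CPM in untreated rats (SD, n = 5 each). Arhgap5, a GTPase-activating protein, had 44.1 ± 10.4 CPM with ibudilast and 101 ± 11.0 CPM without (SD, n = 5 each). Unlike most members, Mef2a was lowest among untreated rats in replicate 3, at 60.8 CPM. The part of other cells in the values of these genes was not tested. Bin1, a membrane-shaping protein abundant in oligodendrocytes and neurons, was the one that rose, with 566 ± 36.7 CPM in ibudilast rats and 397 ± 26.0 CPM in untreated rats. The median log2 fold change of this list was -0.53.

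A list of 25 other disease-associated genes held 1 fall (4%, against 22.8% of all genes) and 1 rise (4%, against 24.3% of all genes). The other 23 genes had no call, and the list's median log2 fold change was 0.02, the same as that of all genes. Hif1a, the hypoxia-responsive transcription factor, had 43.2 ± 4.53 CPM with ibudilast and 81.7 ± 10.7 CPM without (SD, n = 5 each). It too was lowest among untreated rats in replicate 3, at 65.6 CPM. Fth1, the ferritin heavy chain, had 4167 ± 325 CPM with ibudilast and 2942 ± 349.5 CPM without (SD, n = 5 each). The growth factor Igf1 had a log2 fold change of 0.71 and missed the threshold narrowly (adjusted p = 0.0502 by edgeR), as did the lipid carrier Fabp5 at 0.29 (adjusted p = 0.0621). Igf1 was highest in ibudilast replicate 4, at 9.86 CPM. It had 3.63 to 5.72 CPM in the other ibudilast rats and 2.83 to 4.74 CPM in untreated rats. Its fold change without replicate 4 is not given here.

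Partners of the members' receptors and ligands showed 5 falls, 0 rises and 12 genes without a call among 17 tested, so that 29.4% fell, against 22.8% of all genes. Tgfbr1, which the homeostatic list also holds, a receptor of the TGF-beta signal that keeps microglia homeostatic in mice, fell by 0.59 on the log2 scale, as did Cd200, a neuronal ligand that restrains microglia. Cd47, which signals against phagocytosis, fell by 0.51. A list of 36 myeloid signalling genes held 9 falls, 0 rises and 27 genes without a call, a share of falls (25%) near that of all genes (22.8%). Among them the kinase Lyn fell by 0.73 on the log2 scale, the phospholipase Plcg2 and the surface protein Cd48 by 0.58 each and the transcription factor Cebpa by 0.44.

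Markers of other cells were summed in each library. Of border macrophage markers, 0 of 6 tested passed in edgeR's test (1 at an unadjusted p of 0.05, Lyve1), and in sum they held 18.8 to 78.9 CPM in ibudilast rats and 17.3 to 39.96 CPM in untreated rats; the defining gene Pf4 was at 0 in 1 untreated rat. Neutrophil and monocyte markers summed to 1.39 to 2.24 CPM with ibudilast and 0.902 to 2.11 CPM without, too few to test. Lymphocyte markers summed to 10.8 to 23.5 CPM in ibudilast rats and 14.3 to 21.6 CPM in untreated rats, with 0 of 3 passing (0 at an unadjusted p of 0.05), and Cd3g was at 0 in 4 ibudilast and 2 untreated rats. As background, these blood-derived cells and border macrophages carry Itgam and Itgb2 as well, and their part in those falls was not tested.

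Oligodendrocyte markers were higher in sum, at 16121 to 19193 CPM in ibudilast rats and 7885 to 15438 CPM in untreated rats, and 8 of 15 rose (53.3%, against 24.3% of all genes). Neuron markers were lower in sum, at 3350.3 to 8232 CPM with ibudilast and 9022 to 12039 CPM without, and 7 of 12 fell (58.3%, against 22.8% of all genes). Endothelial markers summed to 229 to 523 CPM in ibudilast rats and 468 to 889.9 CPM in untreated rats. Of these, 6 of 12 fell (50%, against 22.8% of all genes). Astrocyte markers summed to 7850.1 to 9512 CPM with ibudilast and 7236 to 11483 CPM without, and 4 of 11 fell (36.4%, against 22.8% of all genes). Untreated replicate 3, the highest library for most members, was also highest in the astrocyte and endothelial sums and lowest in the oligodendrocyte sum. The part of these shifts in the members' values was not tested.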

How the data were processed

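RNA of 10 left hippocampi was sequenced, with 1 stranded poly(A) library per rat, per the labels. The authors deposited expected counts per gene symbol, and beside them a normalized signal in which a count is divided by a scaled library size. Tools in the submitters' processing notes are Bowtie2 2.1.0, RSEM 1.2.15, bcl2fastq and edgeR, with the rn6 build; how strand was used in counting and which annotation served are not given in the sources used here. Counts were rounded before testing, since 12% were not whole.

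Groups came from the sample titles, by which all 20 columns were matched and 0 were left over. The members and the further gene lists were chosen with earlier results of these data known. All members are accounted for, and up to 4 genes of each further list were named by smallest p, some of which are not reported here (Il34, Csf1, Cx3cl1, Med12l and Cask were added after the values were seen, as ligands and host genes of members, as were the ratios). The test, run in R 4.3.3 with edgeR 4.0.16 and limma 3.58.1 and checked on simulated counts, was the quasi-likelihood F test of edgeR with TMM factors, robust fits and the filterByExpr filter, which kept 12355 genes; p-values were adjusted over these by Benjamini-Hochberg and called under 0.05. Log2 CPM used a prior count of 2. Both groups number their rats 1 to 5, but the deviations of same-numbered rats correlated at over 0.1 in 1 of 5 pairs, so no block was used. No libraries of 1 group agreed within sampling noise (lowest chi-square per gene 11.6). Whole reads recovered from the deposited signal (100% of values whole within 0.01) gave 3004 genes higher and 2813 lower, an alternative added after seeing the data. The closing section gives the effect of the rest, namely other scalings (RLE, upper-quartile, none), other low-count filters (none, a mean of 1 CPM), other tests (DESeq2 1.42.0, limma-voom, limma-trend on the log2 signal with 1 added), a replicate block, an adjusted p of 0.01 and omitted rats. Promoters came from RefSeq tables on GRCr8.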

Additional observations from a re-analysis of the deposited data

Results flagged for a closer look

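In a group of 5 rats, a sample was picked out when its gap to the nearest of the others exceeded 0.71 of the group's range (Dixon's 95% value), which chance does in about 1 of 20 groups. Of 68 groups examined, 20 held such a rat. In 16 of them it was untreated replicate 3, each time as the highest. Of the homeostatic genes, that rat had 41.7 CPM of P2ry12, 70.7 of Tmem119, 63.1 of Cx3cr1, 283.9 of Csf1r, 36.2 of Gpr34, 119 of Selplg, 93.9 of Slco2b1 and 9.55 of Csf3r. Of the shared genes, it had 41.1 CPM of Itgb2, 95.8 of Laptm5, 24.3 of Cd53, 16.4 of Spi1, 11.6 of Irf8, 18.9 of Fcgr2b and 43.1 of Fcer1g, and of the disease-associated genes 60.7 CPM of Axl. These members share a library and are not separate observations. Ibudilast replicate 4 stood apart with 24.3 CPM of Spp1, 18.9 CPM of Olfml3 and 8.15 CPM of Ptprc. Ibudilast replicate 5 stood apart with 3.18 CPM of P2ry13, where the other ibudilast rats had 2.19 to 2.38 CPM, still below every untreated rat.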

How the results depend on the processing

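No called member changed sign in any of the 21 other settings, and P2ry12, P2ry13, Gpr34, Cx3cr1, Csf1r, Itgam, Itgb2, Cd53 and Gpnmb passed in all. At an adjusted p of 0.01, 1859 of all genes, 2 shared myeloid members and 1 disease-associated member were lower. With a replicate block, in rats that the numbers do not pair, 10 members fell and 1 disease-associated member did. The single rise, in the homeostatic set, became 0 with RLE factors, no filter, limma-trend, the block or an adjusted p of 0.01, and 2 without the 4 libraries that stood apart. Leaving out 1 rat at a time gave 0 to 1 members higher (likewise for the homeostatic set), 1 to 2 disease-associated members lower, and a disease-associated median of -0.55 to -0.19.

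Signs turned only for members without a call. Upper-quartile factors gave Tmem119 0.021, Aif1 0.030, Ly86 0.015 and Clec7a 0.019; library size alone gave Tmem119 0.060, Csf3r 0.020, Aif1 0.073, Ly86 0.058 and Clec7a 0.047. With limma-voom, Tmem119 was 0.030, Aif1 0.051 and Ly86 0.0049; with limma-trend, Tmem119 was 0.017 and Aif1 0.033; with the replicate block, Tmem119 was 0.029 and Aif1 0.046. Without the 4 libraries, Tmem119 was 0.28, Selplg 0.060, Csf3r 0.12, Aif1 0.12, Laptm5 0.060, Fcer1g 0.0033, Inpp5d 0.22 and Spp1 -0.82. Over the omissions of 1 rat, Tmem119 ran from -0.10 to 0.19, Olfml3 from -0.35 to 0.63, Selplg from -0.26 to 0.083, Csf3r from -0.16 to 0.10, Aif1 from -0.14 to 0.19, Laptm5 from -0.19 to 0.12, Irf8 from -0.32 to 0.073, Fcer1g from -0.22 to 0.087, Ly86 from -0.18 to 0.081, Inpp5d from -0.31 to 0.087, Spp1 from -0.62 to 2.13 and Clec7a from -0.27 to 0.18. The cause was not tested. Counts near 0 limit Cst7, Ccl4 and Clec7a.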
